A study of Mus musculus x Rattus norvegicus with 2 samples.

Results

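The interferon response genes examined here are 33 genes that cells switch on, or raise, after an interferon reaches its receptor. They were taken by symbol from the deposited gene tables: 33 had a mouse feature and 29 a rat feature, among 80802 features in all (55403 mouse and 25399 rat). Ifit3b, Ifi27l2a, Trim30a and Irgm1 had no rat feature of that symbol. The genes were measured in 2 droplet single-cell RNA libraries of lung at E20.5, each from animals in which C57BL/6 mouse cells and SD rat cells had grown together. In the control library the rat host was wild type (wt), and the lung was a chimera of mouse and rat cells. In the mutant library the rat host was Nkx2-1-/-, that is, without the transcription factor needed for lung formation, and the lung was a mouse lung. Both groups were thus interspecies animals, and the host genotype was the labelled difference between them. Each group was 1 library, and the labels do not say how many embryos went into it. Cells are called control or mutant cells below after their library, whatever their species. There was no replicate check of any difference between libraries. Intervals below are 95% intervals and cover counting error only.

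Type I interferons bind the receptor pair Ifnar1 and Ifnar2 and type II interferon binds Ifngr1 and Ifngr2. Their kinases activate STAT proteins, and Stat2 and Irf9 are parts of the factor that turns on most of the genes below. Many products block viruses directly, by binding viral RNA, degrading it, or stopping membrane fusion. Others, such as Irf7 and Ifih1, widen the response, and Usp18 ends it. Cells at rest keep a part of the set at a moderate level, and the remainder is nearly silent until induction. For description the members were split by that known behaviour into 20 inducible members (among them Isg15, the Ifit, Oas and Mx genes, Irf7, Usp18, Rsad2, Rtp4, Xaf1 and Ifi44) and 13 basal members (among them Ifitm3, Bst2, Stat2, Irf9 and Ifi27).

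A pair of members was hard to tell apart by sequence. Ifit3 and Ifit3b lie side by side on mouse chromosome 19 (mm10, chr19:34583531-34588731 and chr19:34607970-34613401, both on the plus strand). Their coding sequences, 1209 bases each in GENCODE vM21, were identical at 1198 positions (99.1%). Their first 90 coding bases are shown to make the near-identity visible, with the only base that differs between them in capitals.
Ifit3: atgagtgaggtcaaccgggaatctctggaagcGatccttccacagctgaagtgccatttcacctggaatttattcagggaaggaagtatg
Ifit3b: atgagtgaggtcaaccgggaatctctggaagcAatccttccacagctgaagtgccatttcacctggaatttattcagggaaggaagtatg
Downstream of the coding part, where 3' libraries read, the stretches were of unequal length, 467 bases in Ifit3 and 767 in Ifit3b. Identical bases filled 441 of 770 aligned positions (57.3%), a share that counts the gaps from unequal length as differences. It therefore does not say how well reads from there tell the genes apart. The separate counts of Ifit3 and Ifit3b are given as uncertain. The same caution holds for Oas1a and Trim30a, which lie among close copies.

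The libraries held 11129 and 10918 barcodes and 123047433 and 103627303 UMIs (unique molecular identifiers, the counted RNA molecules), control first. After filters and removal of doublets there were 7260 and 8499 mouse cells and 725 and 79 rat cells. The libraries shared 47 barcode sequences, 29 of them among kept cells. Mouse cells fell into endothelial (1639 control and 1960 mutant cells), epithelial (1216 and 2136), mesenchymal (3583 and 4230) and immune (172 and 87) classes, with 82 erythroid and 57 mesothelial barcodes. A cluster of 565 control and 32 mutant cells took no class name and is outside the class values. Its inducible members had 14.4 CPM in control cells (99 UMIs) and 15.1 CPM in mutant cells (1 UMI, 0.38 to 84.4 CPM). All 10 endothelial class markers reached 10 CPM in the endothelial cells of both libraries. The control and mutant cells of a class lay mostly in different clusters, so a cluster is named beside a value wherever that matters. CPM stands for UMIs of a gene per 1000000 mouse (or rat) UMIs, summed over the cells of a group, and differences are on the log2(CPM + 10) scale. Fewer cells with the RNA and less RNA in each cell cannot be told apart in such sums. The spread over cells is described separately.

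In mouse endothelium the set stood higher in the mutant library throughout. Of the 33 members, 24 reached 10 CPM in either library, all 24 were higher in the mutant library, and 15 were higher by at least 1 on the log2 scale. Of all 9427 genes measured in these cells, 10.6% were that much higher and 3.82% that much lower. The members' median difference was 1.20, beside -0.09 for all genes. Of the 24, 12 reached 10 CPM in mutant cells only, so the minimum itself selected them for being higher there. The other 12 reached it in control cells too: all 12 of those were higher in mutant cells, and 6 (Isg15, Oasl2, Rtp4, Xaf1, Parp14 and Stat2) by at least 1. All members counted, 12 of the 20 inducible and 3 of the 13 basal ones were higher by at least 1, and 8 of those 12 were under 10 CPM in control cells. The summed level of the 20 inducible members was 95.3 CPM (90.5 to 100.3) in control and 596.3 CPM in mutant cells (584.4 to 608.4).

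The 2 matrices came from different Cell Ranger versions, 6.0.1 for the control and 7.0.1 for the mutant library, and the later one counts intronic reads by default. Each difference was therefore also set against the median of genes with a like total intron length. In endothelium the median difference of all genes went up with total intron length, from -0.47 below 2 kb to 1.44 above 200 kb, and the other classes showed the same gradient. On the relative scale the endothelial median was 1.44, all 24 members stayed above 0, and 19 were higher by at least 1, where 4.88% of all genes were. Irf7, whose gene model has no intron free of exon annotation, and Isg15, with 0.639 kb of intron, were 1.59 and 2.78 higher on it. The endothelial cells also differed in depth (median 3640 UMIs for control and 7527 for mutant cells) and in mitochondrial share (2.72% and 5.51%), and the summed erythroid markers in them were 4231 and 2897 CPM. The part of mitochondrial share and erythroid RNA in the result was not tested. With every cell thinned to 2000 UMIs the median was 1.17.

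**Figure D1:**
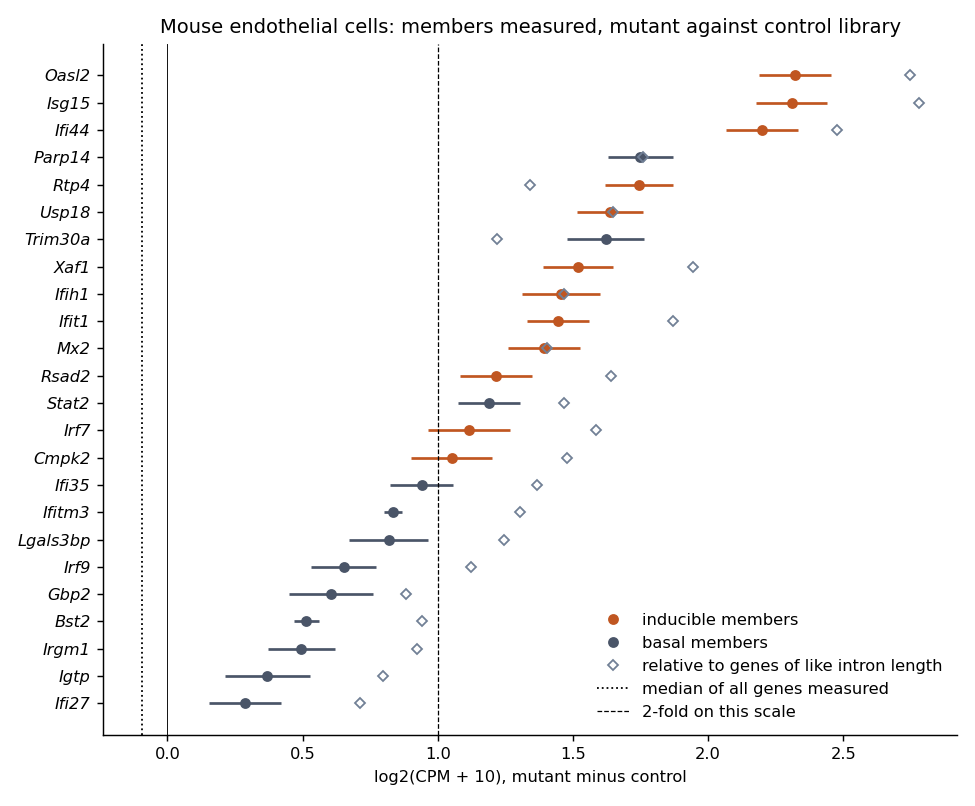
Difference between the libraries, on the log2(CPM + 10) scale, for the 24 members measured in mouse endothelial cells; points are the values, lines their 95% counting intervals and open diamonds the value relative to genes of like intron length. All 24 points lie above 0, 15 lie at or beyond 1, and the median of all genes lies at -0.09.

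The factors that carry the interferon signal were all higher in mutant endothelium. Stat2 stood at 36.1 CPM in control and 95.3 CPM in mutant cells, a difference of 1.19 (1.08 to 1.31). Irf9, its DNA-binding partner, had 38.0 and 65.4 CPM, a difference of 0.65. Irf7, the factor that amplifies interferon production and is itself induced, had 6.59 and 26.0 CPM, a difference of 1.12 (0.97 to 1.27). The lower bound for Irf7 lies just below 1, while the counting intervals of its 2 levels do not overlap. Among the RNA sensors, Ifih1 (MDA5, which detects long double-stranded RNA) had 7.70 and 38.6 CPM, a difference of 1.46. Dhx58, the related helicase LGP2, stayed below 10 CPM at 2.09 and 7.92.

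The ISG15 system gave some of the largest differences. Isg15, a small ubiquitin-like protein that is attached to other proteins, had 11.3 CPM (9.67 to 13.1) in control and 95.4 CPM in mutant cells (90.7 to 100.3), a difference of 2.31. Usp18, which removes ISG15 and dampens receptor signalling, had 18 UMIs (1.17 CPM) in control and 397 UMIs (24.8 CPM) in mutant cells, a difference of 1.64. Both intervals lie far from each other, and Usp18 was all but absent from control endothelium.

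Of the antiviral effector families, a single member often carried the endothelial signal. Oasl2, an OAS-like protein, had 10.4 and 91.8 CPM, and its difference of 2.32 was the largest of the 24. The 3 other OAS members had few or no UMIs: Oas1a had 0 and 28 UMIs, Oas2 had 1 and 13, and Oas3 had 0 in both libraries. Ifit1, which binds foreign 5' ends of RNA, had 6 and 293 UMIs (0.39 and 18.3 CPM), a difference of 1.44. Ifit3 had 0 and 39 UMIs and Ifit3b 0 and 17, so against a floor of 3 UMIs in the control they were at least 12.4-fold and 5.42-fold higher in the mutant library. Ifit2, by contrast, had 2.54 and 3.93 CPM, below the 10 CPM needed to be counted as measured.

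The GTPases split in the same way. Mx2 had 27 UMIs in control and 335 in mutant cells (1.76 and 20.9 CPM), a difference of 1.39, while Mx1 had no UMI in the endothelium of either library. C57BL/6 mice are known to carry a defective Mx1 gene. Irgm1, a GTPase that acts on membranes of pathogen vacuoles, was already present in the control at 34.6 CPM and stood at 53.0 CPM in the mutant library, a difference of 0.50. Igtp (8.55 and 13.97 CPM) and Gbp2 (5.87 and 14.2 CPM), both better known as targets of type II interferon, differed by 0.37 and 0.61. These GTPases were thus among the members with the smaller differences.

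Both restriction factors that sit in membranes were abundant in endothelium of both libraries. Ifitm3, which hinders fusion of virus with the cell membrane, had 668 CPM in control and 1199 CPM in mutant cells, a difference of 0.83 (0.80 to 0.87). Bst2, or tetherin, which holds budding virus at the surface, had 367 and 528 CPM, a difference of 0.51. Rsad2 (viperin) had 1.70 and 17.2 CPM and its genomic neighbour Cmpk2, which supplies the same nucleotide pathway, 4.37 and 19.8 CPM. Both lay under the 20 CPM chosen for full description, and both were higher by at least 1.

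The remaining members followed the same direction. Rtp4 (20.7 and 92.8 CPM), Xaf1 (19.96 and 75.8 CPM), a cell death regulator, and Ifi44 (4.63 and 57.2 CPM) differed by 1.74, 1.52 and 2.20. Parp14, an ADP-ribosyltransferase, had 26.0 and 110.9 CPM, a difference of 1.75, and Trim30a had 7.37 and 43.4 CPM, a difference of 1.62. Ifi35 (38.3 and 82.7 CPM) came to 0.94 and Lgals3bp (2.67 and 12.4 CPM), a secreted glycoprotein, to 0.82. Ifi27, a mitochondrial protein, differed least of all measured members, with 29.5 and 38.2 CPM and a difference of 0.29 (0.15 to 0.42). Ifi27l2a stayed at 0.72 and 5.93 CPM.

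Endothelial clusters that held cells of both libraries gave mostly the same direction. For all genes only the median is given here, not the share higher. The minimum again selected some members for being higher in mutant cells: Irf7 and Ifi44, for example, reached 10 CPM in mutant cells only in each cluster below. A general-capillary-like cluster with 728 control and 174 mutant cells had matched and shallow depth (median 1493.5 and 1462.5 UMIs). There 20 of 21 members measured were higher in mutant cells, with a median of 1.31 (all genes -0.04), and Stat2, at 12.8 and 9.23 CPM from 17 and 3 UMIs, was not. In it Isg15 had 9.79 and 101.5 CPM and Ifitm3 746.2 and 1305 CPM. Another general-capillary-like cluster, with 863 control and only 30 mutant cells, had 20 of 22 members higher, with a median of 1.09 (all genes -0.27), and Isg15 at 11.6 and 211.1 CPM. Stat2 (38.8 and 30.9 CPM) and Irgm1 (36.3 and 25.7 CPM) were not higher there, on 6 and 5 UMIs in the mutant cells. An endothelial cluster led by Vwf, with 47 control and 109 mutant cells, had all 23 members measured higher, with a median of 1.41 (all genes -0.15).

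Among endothelial clusters with at least 15 cells in a library, all 7 mutant ones lay above all 3 control ones in the inducible members. The 3 control clusters had summed levels of 63.2, 88.8 and 98.8 CPM. In the mutant library the level was 648.3 CPM in the main general-capillary-like cluster (1171 cells), 440.9 CPM in aerocyte-like cells (263 cells), 504.7 CPM in arterial-like cells (198 cells) and 606.1 CPM in the cluster led by Vwf. The lowest was 237.1 CPM in 15 lymphatic-like cells. The aerocyte-like, arterial-like and lymphatic-like clusters had no counterpart of size in the control library.

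**Figure D2:**
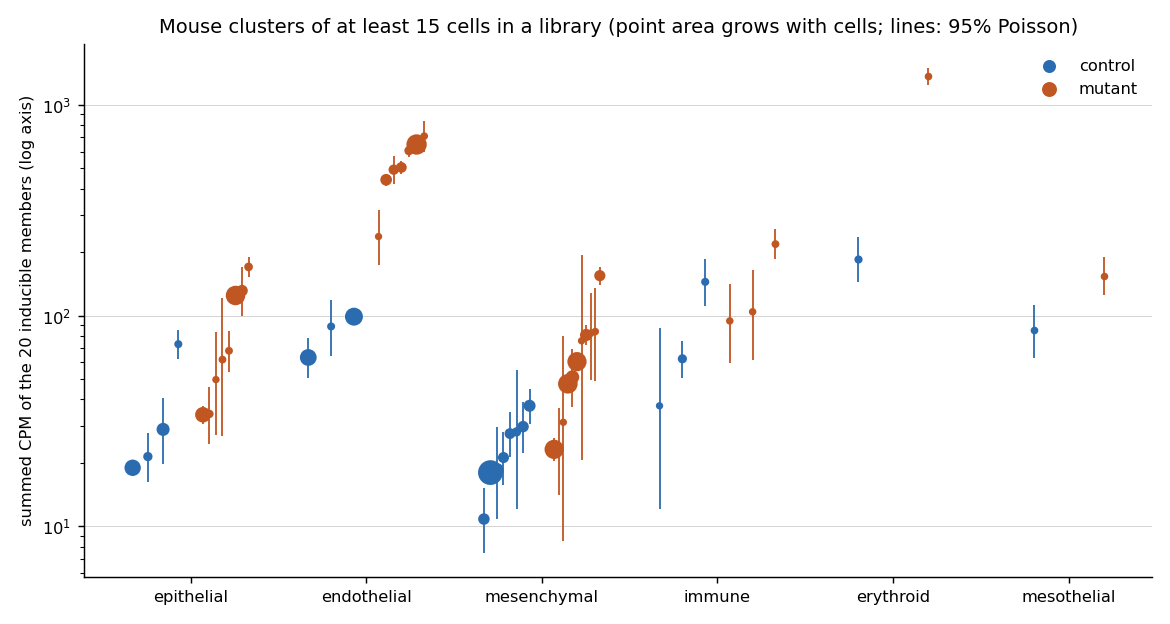
Summed CPM of the 20 inducible members (log axis) in each mouse cluster with at least 15 cells in a library; points are clusters, vertical lines 95% Poisson intervals, and point area grows with the number of cells. Mutant endothelial clusters lie between 237.1 and 710.6 CPM and control ones between 63.2 and 98.8 CPM, and the erythroid barcodes of the mutant library lie highest.

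Whether the signal lay in few or in most cells was asked with every cell thinned to 2000 UMIs of its species, which leaves out shallower cells. In control endothelium 15.7% of 1111 cells (13.6% to 17.9%) had at least 1 UMI of any inducible member, and the same UMIs spread evenly (a Poisson spread) would have reached 16.8%. In mutant endothelium 55.6% of 1815 cells (53.3% to 57.9%) had one, where an even spread would have reached 69.2%. Without Isg15 the mutant share was 52.0%. The signal in mutant endothelium thus lay in most cells at this depth, yet less evenly than a Poisson spread gives: 72 cells (3.97%) held 5 or more UMIs, where an even spread gives 0.717%. The 10% of cells with the most inducible UMIs held 40.9% of them. The variance of the count was 2.32 times its mean, against 1.14 times in the control.

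The cells with many inducible UMIs were not of 1 cluster only: 50 of the 72 came from the main general-capillary-like cluster, which holds most mutant endothelial cells. Within mutant endothelium, cells with more inducible UMIs also had more basal ones. Mutant endothelial cells with 0, 1 or 2, 3 or 4, and 5 or more inducible UMIs had on average 3.65, 4.66, 5.78 and 7.58 UMIs of the 13 basal members, which played no part in that split. Their Ifitm3 alone went from 1.95 to 4.21 UMIs and the 53 other interferon-induced genes examined from 6.26 to 11.8 UMIs. The endothelial class markers did not follow, with 20.8, 20.7, 21.8 and 19.9 UMIs, and immune class markers stayed between 0.25 and 0.32 UMIs. Erythroid markers had 2.06, 5.21, 12 and 2.82 UMIs in the same groups, and median depth before thinning ranged from 7512 to 7948 UMIs. An Isg15 UMI also came with others: 72.7% of the 245 mutant endothelial cells with one had a UMI of another inducible member (66.6% to 78.1%), against 48.7% of the 1570 cells without one (46.2% to 51.2%).

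**Figure D3:**
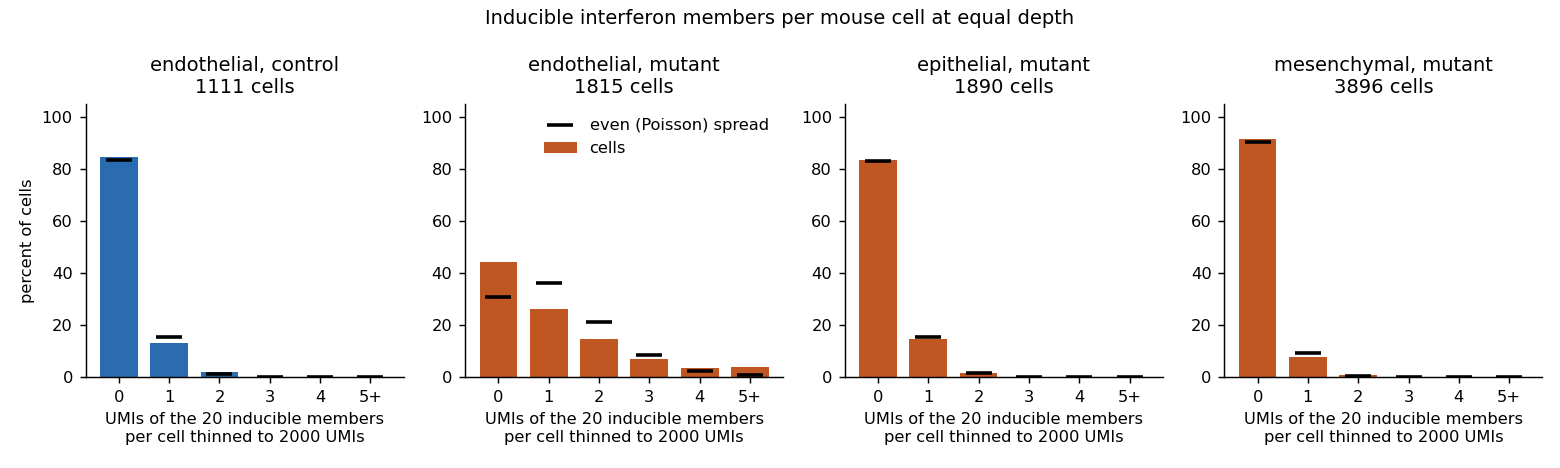
Percent of mouse cells by their number of inducible-member UMIs after thinning to 2000 UMIs a cell; bars are cells and black marks the percent that an even (Poisson) spread of the same UMIs gives. Mutant endothelium has more cells at 0 and at 5 or more than the even spread. The other groups lie nearer to it, though mutant mesenchyme has more cells at 0 (91.3%, even spread 90.1%) and at 3 (0.180%, even spread 0.0168%).

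In mouse epithelium most members were scarce in both libraries. The summed level of the 20 inducible members was 22.9 CPM (21.3 to 24.6) in control and 82.8 CPM (79.4 to 86.3) in mutant cells. Only 9 of the 33 members reached 10 CPM, of which 8 were higher in the mutant library and 2, Ifi27 and Usp18, by at least 1. All epithelial genes gave 12.4% that much higher and 11.8% that much lower. The members' median was 0.80 (all genes -0.17), or 1.16 relative to genes of like intron length, and 5 of the 9 reached 10 CPM in mutant cells only. Ifi27 was the largest, with 10.4 CPM in control and 82.2 CPM in mutant cells, a difference of 2.18 (2.08 to 2.27). Ifitm3 was the single one of the 9 measured epithelial members below 0, with 57.5 CPM in control and 34.0 CPM in mutant cells, a difference of -0.62 (-0.71 to -0.53). Relative to genes of like intron length that came to -0.09.

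Within the mutant epithelium the level depended on the cell type. AT1-like cells, the flat gas-exchange cells (1055 cells), had 124.5 CPM of inducible members, and AT2-like cells, the surfactant makers (598 cells), 33.8 CPM. Isg15 had 17.6 CPM in the former and 2.43 CPM in the latter. The control epithelium lay mostly in a cluster without a type name (684 cells), with 19.0 CPM. Ciliated-like cells had 73.2 CPM (47 cells) in control and 170.1 CPM in mutant cells (78 cells), and Usp18 had 18.4 and 65.8 CPM in them. Of the epithelial clusters that both libraries share, the ciliated-like one had 8 of 9 members measured higher in mutant cells (median 0.69, all genes 0.03). Stat2 and Ifi27 were among those that reached 10 CPM there in mutant cells only. The secretory-like cluster (111 control and 63 mutant cells) had only 3 of 5 higher, with a median of 0.06 (all genes -0.26). A shallow cluster without a type name (371 and 36 cells) had 4 of 7 higher, with a median of 0.20 (all genes -0.27). There Ifitm3 had 145.9 and 61.8 CPM and Bst2 62 and 0 UMIs. The summed endothelial class markers in that shallow cluster were 716.3 CPM in control and 100.4 CPM in mutant cells, and their part was not tested. Ifitm3 had 205.4 and 143.0 CPM in the ciliated-like cluster and 118.9 and 124.6 CPM in the secretory-like one. In the main control cluster without a type name it had 36.8 CPM in control cells and 39.0 CPM in the 19 mutant cells there. At equal depth 5.86% of control and 16.5% of mutant epithelial cells had an inducible UMI, both close to an even spread (5.97% and 17.1%).

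Mouse mesenchyme showed a strong difference in Ifitm3 and low levels of the inducible members, of which only 2 of 20 reached 10 CPM. Their summed level was nonetheless higher in the mutant library, at 20.8 CPM (19.3 to 22.5) in control and 55.4 CPM (53.3 to 57.6) in mutant cells. There 8 members were measured, 7 were higher in the mutant library and 2, Ifitm3 and Stat2, by at least 1, where 10.7% of all mesenchymal genes were that much higher and 5.34% that much lower. Ifitm3 had 210.4 CPM in control and 571.8 CPM in mutant cells, a difference of 1.40 (1.36 to 1.44). Stat2 had 10.7 and 40.9 CPM, a difference of 1.30. The members' median was 0.75 (all genes -0.10), or 1.16 relative to genes of like intron length, and 3 of the 8 reached 10 CPM in mutant cells only. Ifit2, low in endothelium, was highest in mesenchyme at 11.9 and 10.2 CPM and was the member below 0 there (-0.12).

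At equal depth an inducible UMI was found in 3.65% of control (even spread 3.62%) and 8.73% of mutant mesenchymal cells. In mutant mesenchyme 91.3% of cells had none, where an even spread gives 90.1%, and 0.180% had 3, where it gives 0.0168%. Among large mutant clusters the share with an inducible UMI was lowest in myofibroblast-like cells, at 3.54% (1022 cells, median 9626 UMIs). Whether free RNA in the droplets gives a share of that size was not tested. Pericyte-like cells wrap capillaries, and their largest mutant cluster (228 cells) stood out from the other mesenchyme. It had 154.6 CPM of inducible members and Isg15 at 64.1 CPM. Smaller mutant pericyte-like clusters, of 24 and 26 cells, had 82.4 and 83.9 CPM, near the 80.8 CPM of mutant adventitial-fibroblast-like cells (307 cells). The level in the largest cluster was unevenly spread: 18.0% of the 228 cells had an inducible UMI at equal depth, where an even spread gives 27.1%. The variance of the count was 3.68 times its mean. The summed endothelial class markers in this cluster were 284.7 CPM, against 208.3 CPM in the myofibroblast-like cells and 9522 CPM in the main mutant endothelial cluster. Of 268 mutant pericyte-like cells deep enough to thin, 8 held 3 or 4 inducible UMIs and 1 held more, and those 8 had 2.62 endothelial marker UMIs on average, against 0.493 in the 217 cells without an inducible UMI. The part of endothelial RNA in the pericyte-like values was not tested. Over all mouse pericyte-like cells (606 control and 283 mutant), Isg15 had 5.93 and 60.1 CPM and Mx2 0.70 and 17.1 CPM.

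The immune class held different cells in the 2 libraries: 103 neutrophil-like, 50 macrophage-or-monocyte-like and 16 lymphoid-like cells in the control, and 38 neutrophil-like, 23 lymphoid-like and 22 B-like cells in the mutant library. Over the class, 18 members were measured, 15 were higher in the mutant library, 5 by at least 1, and Bst2 was lower by more than 1 (212.2 and 92.4 CPM, a difference of -1.12). All immune genes gave 15.5% that much higher and 4.84% that much lower. The median was 0.63 (all genes 0.05). Of the 18, 7 reached 10 CPM in mutant cells only. With trimmed-mean scaling only 2 members were higher by at least 1, beside 12.2% of all genes, and against the median of genes with a like intron length Bst2 came to -0.79. Ifi27l2a was the most abundant member, at 202.3 and 521.7 CPM, and Oas3, at 2.27 and 17.2 CPM, was measured in this class alone among the 4 main ones. Within the neutrophil-like cluster, which both libraries share, 21 of 23 members measured were higher in the mutant library, with a median of 0.86 (all genes 0.06). Some of them, such as Isg15 (6.17 and 32.5 CPM), reached 10 CPM in mutant cells of that cluster only. There Ifi27l2a had 213.5 and 734.6 CPM and Trim30a 24.7 and 87.0 CPM. The summed inducible level in those cells was 62.3 CPM (50.8 to 75.7) in control and 218.3 CPM in mutant cells (184.6 to 256.5). That level was unevenly spread: at equal depth 39.5% of the 38 mutant neutrophil-like cells had an inducible UMI, where an even spread gives 54.6%. Over the immune class 14.7% of 156 control and 25.3% of 83 mutant cells had one (even spread 17.5% and 35.2%), and 1 mutant cell held 10 of the 36 UMIs.

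**Figure D4:**
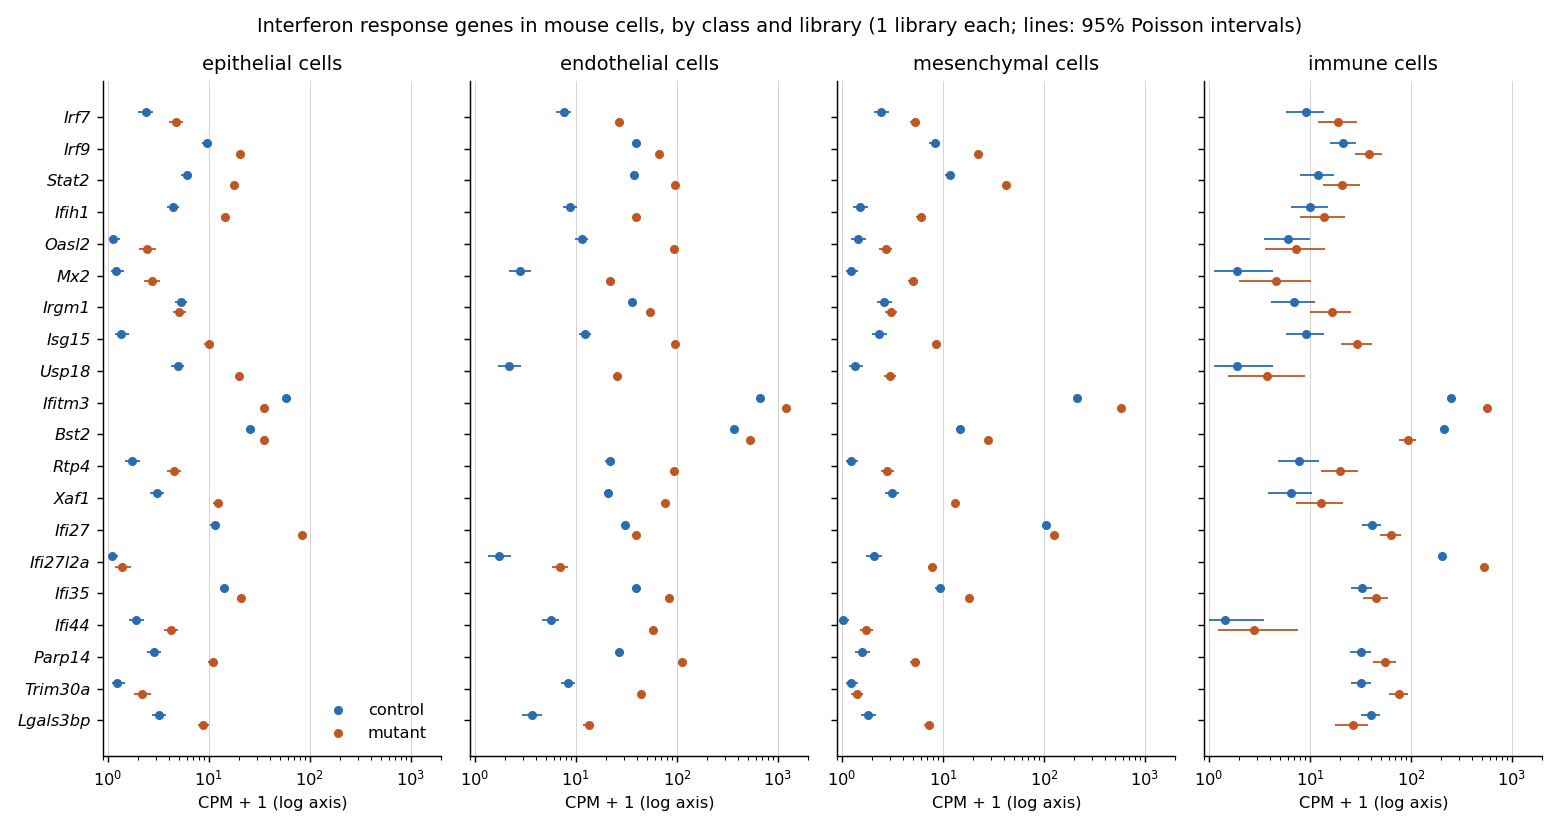
CPM + 1 on a log axis of the 20 members that reached 20 CPM in a main mouse class, by class and library; points are the 2 libraries, lines 95% Poisson intervals. The mutant points lie to the right of the control points for all 20 genes in endothelial cells, and Ifitm3 and Irgm1 in epithelial cells and Bst2 and Lgals3bp in immune cells lie to the left.

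Small groups of barcodes carried some members at high levels. In erythroid barcodes (54 control and 28 mutant) Rsad2 had 144.3 CPM (108.1 to 188.8) in control and 691.7 CPM in mutant cells (606.8 to 785.2), and Isg15 had 19.1 and 590.4 CPM. All genes had a median of -0.71 between these groups. The Isg15 UMIs lay in 2 control and 15 mutant barcodes, and the Rsad2 UMIs in 11 and 20. At equal depth 57.1% of the mutant barcodes had an inducible UMI, where an even spread gives 96.4%. The count varied 8.99 times as much as its mean, and 6 barcodes held 5 or more UMIs. Mesothelial cells (31 and 26) had Gbp2 at 153.3 and 173.3 CPM, a difference of 0.17 (-0.22 to 0.55). Oasl2 had 42.6 and 75.7 CPM in them, a difference of 0.71 (0.11 to 1.30). Irgm1 was lower in mutant mesothelial cells, at 52.8 and 21.9 CPM, a difference of -0.98 (-1.67 to -0.29). Outside the erythroid and mesothelial groups Gbp2 did not pass 14.2 CPM in any named mouse class, and Rsad2 did not pass 17.2 CPM.

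Rat and mouse cells of the control library came through 1 preparation and could be set side by side. In epithelium (1216 mouse and 213 rat cells) 5 of the 29 members with a rat feature were measured, with a median of -0.17 for rat over mouse (all shared symbols 0.04). None was higher in rat by at least 1 (background 7.69%) and 1, Ifitm3, was lower (background 15.4%), at 57.5 CPM in mouse and 23.0 CPM in rat cells. Bst2 had overlapping counting intervals, at 24.7 CPM (23.0 to 26.4) and 24.4 CPM (21.0 to 28.3). In mesenchyme (3583 mouse and 423 rat cells) 6 members were measured, with a median of 1.01 (all shared symbols -0.08). Ifi27 (103.0 CPM in mouse and 443.7 in rat), Ifitm3 (210.4 and 700.4) and Lgals3bp (0.82 and 24.4) were higher in rat by at least 1 (background 7.16%). Bst2, at 13.8 CPM in mouse and 3 UMIs in rat cells, was lower (background 14.8%). The inducible sum was 20.8 CPM in mouse and 25.1 CPM in rat mesenchyme of this library (19.3 to 22.5 and 20.4 to 30.6).

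The mutant library held 79 rat cells, of which 63 were pericyte-like, so only these could be set beside mouse cells and beside the 86 rat pericyte-like cells of the control. In rat pericyte-like cells 12 members were measured and all 12 were higher in the mutant library, with a median of 0.65 (all rat genes 0.08). Only 3, Irf7, Ifi44 and Igtp, were higher by at least 1, and the share of all rat genes that much higher is not given here. Of the 12, only Oasl2, Ifitm3, Stat2, Ifi27 and Lgals3bp reached 10 CPM in control cells. The minimum itself thus selected the others, those 3 among them, for being higher in mutant cells. The counting intervals of the 2 libraries overlapped for Oasl2 (18.8 and 22.6 CPM), Stat2 (14.1 and 16.6 CPM) and Lgals3bp (44.7 and 58.7 CPM), but not for Ifitm3 and Ifi27. Intron length was not taken into account for rat genes. Irf7 had 0 and 11 UMIs, which allows up to 4.33 CPM and gave 16.6 CPM (8.27 to 29.6), and Ifi44 had 9.40 CPM (4.06 to 18.5) and 31.6 CPM (19.6 to 48.3). Igtp had 3.53 and 21.1 CPM and Ifitm3 869.5 and 1358 CPM. Isg15, which had 5.93 CPM in control and 60.1 CPM in mutant mouse pericyte-like cells, had 5 UMIs in each group of rat cells. Within the mutant library, Isg15 had 60.1 CPM in mouse and 7.53 CPM in rat pericyte-like cells, and Ifi44 had 0.62 and 31.6 CPM. Ifitm3 and Ifi27 were the highest members in both species, at 859.2 and 151.7 CPM in mouse and 1358 and 575.3 CPM in rat cells. The mouse and rat pericyte-like cells were matched by marker RNA alone, and genes by symbol alone.

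**Figure D5:**
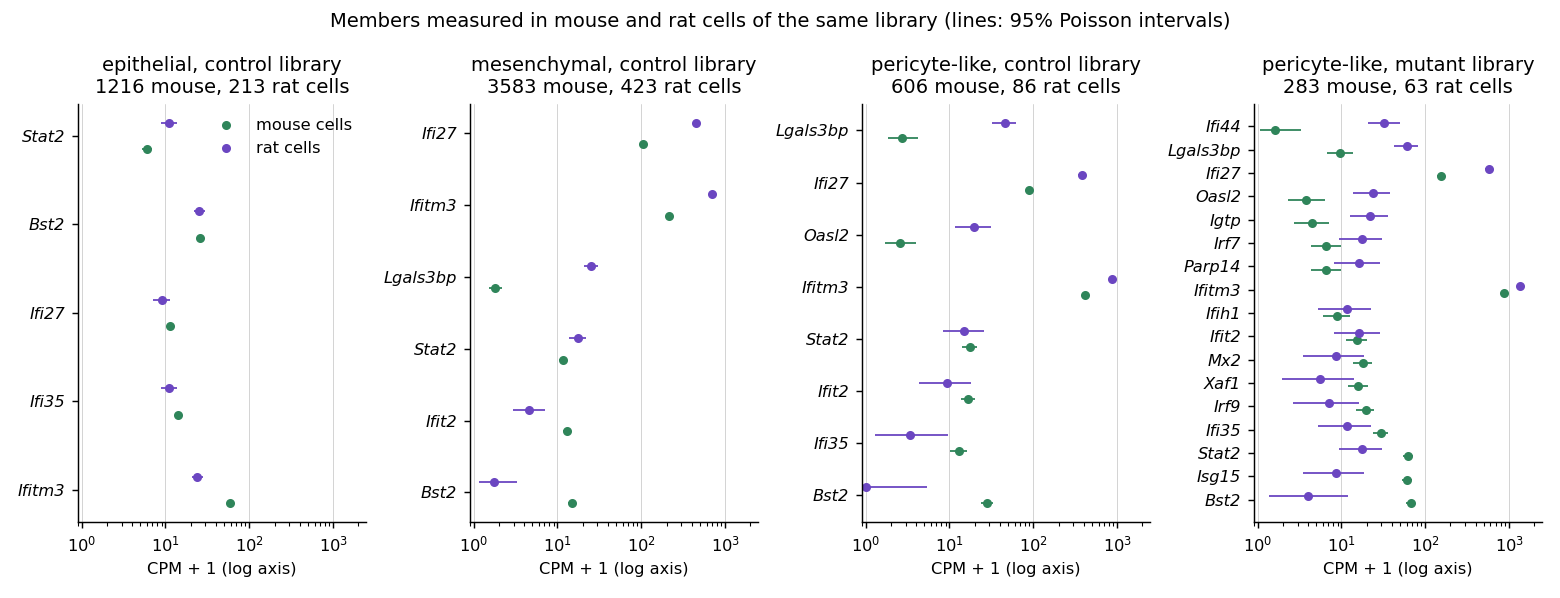
CPM + 1 on a log axis of the members measured in mouse (green) and rat (purple) cells of the same library, for 4 cell groups; points are summed values and lines 95% Poisson intervals. In the pericyte-like cells of the mutant library Ifi44 and Lgals3bp lie higher in rat and Bst2, Isg15 and Stat2 higher in mouse cells.

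Of the UMIs of the members in mouse cells, 0.896% (control) and 0.0800% (mutant) were of rat genes. Among members of the rat and mouse comparison with at least 100 UMIs in mouse cells, the control share was highest for Lgals3bp (6.07%), Ifi44 (3.64%) and Ifi27 (2.47%). Members with few UMIs reached 10.5% (Oas1a, 2 rat UMIs beside 17 mouse ones).

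The other genes of the pathway were examined by role. Of 21 interferon ligand genes of the mouse, 4 had any UMI over all control barcodes and 3 over all mutant ones: Ifnab had 5 and 0 UMIs, Ifnk 2 and 3, Ifnz 13 and 15, and Ifng 12 and 15. No UMI of any other mouse ligand gene on the list, Ifnb1 among them, was counted. Rat Ifng had 0 and 6 UMIs. A count of 0 over a whole library says that the ligand was not detectable at this depth.

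Receptors were present and differed less than the members. In endothelium 5 of 6 receptor genes were measured and none differed by 1 or more, where 10.6% of all genes were that much higher and 3.82% that much lower. The same shares of all genes belong beside each count of endothelial genes below, and counts this small cannot be told from them. Ifnar1 had 73.5 and 96.8 CPM, Ifnar2 47.6 and 97.8, Ifngr1 83.8 and 119.3, and Ifngr2 51.3 and 40.3. Of 11 kinases and factors, 10 were measured, with Irf2 higher (113.5 and 265.9 CPM) and Irf8 lower (25.9 and 6.80 CPM) by at least 1 and a median of 0.42. Irf2 has 100.3 kb of intron, and relative to like genes it came to 0.31. Jak1, a receptor kinase, had 163.5 and 273.9 CPM, and Irf1 (140.4 and 151.0 CPM) and Rela (62.0 and 39.8 CPM) had the lowest differences among the abundant ones. Of 14 sensors and adaptors, 6 were measured and Ddx58, or RIG-I (20.1 and 58.3 CPM), and Tbk1, the kinase below it (35.7 and 88.2 CPM), were higher by at least 1. Of 9 brakes of the pathway, 7 were measured and only Pias1 passed 1, with 0.26 relative to genes of like intron length. Samhd1 had 37.3 and 69.8 CPM, while Socs3, an inhibitor of the kinases, stood at 321.5 and 257.0 CPM and Ptpn1 at 125.4 and 101.1 CPM.

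Of the other interferon-induced genes on the list, 53 had a feature. In endothelium 33 were measured, 11 were higher by at least 1 (10.6% of all genes were) and none lower (3.82%), with a median of 0.77, or 0.96 relative to genes of like intron length. Slfn5 (61.9 and 195.3 CPM) and Iigp1, a GTPase (17.7 and 96.2 CPM), had the largest differences among those of at least 50 CPM, and Slfn9 (55.8 and 31.2 CPM) and Tspo (208.2 and 186.5 CPM) the lowest. In epithelium 15 were measured, with none higher (all genes 12.4%) and 1 lower (11.8%) by at least 1. In mesenchyme 15 were measured, with 1 in each direction (all genes 10.7% and 5.34%). Slfn9, named after its values were seen, was the lower one in both, at 42.8 and 1.36 CPM in epithelium and 31.0 and 2.84 CPM in mesenchyme. Ifitm1, the neighbour of Ifitm3, was the higher one in mesenchyme, at 59.7 and 407.2 CPM. In immune cells 36 were measured, with 5 higher and none lower, beside 15.5% and 4.84% of all genes.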

How the data were processed

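The count matrices (whole UMI counts per gene and barcode, 10x 3' v3) were made by the authors with Cell Ranger 6.0.1 (control) and 7.0.1 (mutant) per the file headers, against mm10 and rn6. The intron setting is not given in the sources used here, but differences between the libraries went up with intron length. Seurat 4.3 is named in the submitters' processing notes. Barcodes with at least 500 genes and at most 20% mitochondrial UMIs were kept. A barcode was mouse above 90% mouse UMIs, rat below 10%, and otherwise mixed and left out. Doublets were removed at a fixed Scrublet score of 0.2, since the automatic threshold called almost no control cells, and mutant rat cells were not scored. Cells were clustered with Scanpy 1.11.5 (Leiden, resolution 1), and clusters were named from marker lists, so names are rebuilt and carry "-like". UMIs were summed per species, class and library. A gene was measured at 10 CPM in either group, the pseudocount was 10 CPM, and 1 on the log2 scale was the size used for counts. With 1 library a group no test was made. Poisson and Clopper-Pearson intervals are exact at 95% and cover counting error only, and those of log2 differences are approximate. Members at 20 CPM in a main class were to be described in full, and 20 were. In the pathway lists the named genes are those with the largest differences, in either direction, among genes of at least 50 CPM, and others are named where a count or role needed them. The members and lists were chosen with earlier results of these data known. Pathway lists came from background knowledge, and 1 gene on them is not reported here. Positions and intron lengths are from GENCODE vM21 (mm10). Alternatives are in the closing section.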

Additional observations from a re-analysis of the deposited data

Results flagged for a closer look

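For 3 members, among those measured in a class, the difference between the libraries, mutant over control on the log2(CPM + 10) scale, had opposite signs, with counting intervals clear of 0, among the 4 main mouse classes. With 1 library a group the differences between classes were not tested. Bst2 had 0.51 in endothelial, 0.33 in epithelial and 0.64 in mesenchymal cells, and -1.12 in immune cells. Of the control immune cells 50 were macrophage-or-monocyte-like, where Bst2 had 433.5 CPM, against 4 of the mutant immune cells. Within the neutrophil-like cluster of both libraries Bst2 had 148.7 and 104.7 CPM, a difference of -0.47. Ifitm3 had 0.83 in endothelial, 1.40 in mesenchymal and 1.14 in immune cells, and -0.62 in epithelial cells. Lgals3bp had 0.82 in endothelial cells and -0.47 in immune cells, and within the neutrophil-like cluster it had -0.06. Outside those classes Irgm1 had -0.98 in mesothelial cells (31 control and 13 mutant UMIs), beside 0.50 in endothelial cells.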

How the results depend on the processing

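No median changed sign, and no member that differed by at least 1 did so. Smaller differences that did were Dhx58 in immune cells (at most 0.30), and, thinned to 2000 UMIs, Stat2 (-0.05), Xaf1 (-0.40) and Ifih1 (-1.19) in immune cells and, for rat over mouse epithelium, Stat2 (-0.32) and Bst2 (0.48). No paired analysis was possible because each group was 1 library and the only replicate number was 1. The members' median difference moved as follows. With a pseudocount of 1 CPM it was 1.56 in epithelial, 1.91 in endothelial, 1.19 in mesenchymal and 0.91 in immune cells, and for rat over mouse -0.33 in epithelium and 1.15 in mesenchyme. With any UMI in place of the 10 CPM minimum it was 0.19, 0.94, 0.21 and 0.41, and for rat over mouse -0.0085 and 0.0052. Set against the median of genes with a like intron length it was 1.16, 1.44, 1.16 and 0.77. Thinning to 2000 UMIs gave 1.17 in endothelial and 0.80 in mesenchymal cells and 1.24 for rat over mouse mesenchyme. Trimmed-mean scaling gave 1.24 in endothelial and 0.47 in immune cells, and no doublet removal 1.16 in endothelial cells. Counts of members higher by at least 1 moved by over 1.5 times in epithelial cells (2 to 6 with a pseudocount of 1 CPM, where 18.6% of all genes passed, 5 thinned, 11.5%, and 5 against intron length, 9.37%), in mesenchymal cells (2 to 4 with that pseudocount, 15.6%, and 5 against intron length, 5.89%) and in immune cells (5 to 8 with that pseudocount, 22.8%, and 2 with trimmed-mean scaling, 12.2%). Counts lower by at least 1 moved in immune cells (1 to 2 thinned, 12.8%, and 0 against intron length, 4.07%) and for rat over mouse mesenchyme (1 to 2 with that pseudocount). The share of all mouse cells with an inducible UMI (6.55% in control and 22.0% in mutant cells at 2000 UMIs) was 11.0% and 32.4% at 4000 UMIs and 22.2% and 48.9% without thinning. The cause of these shifts was not tested. All 264 values of single endothelial members stayed above 0. Depth limits the immune, erythroid, mesothelial and rat values most, and no alternative stands in for a further library.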
